A study of Homo sapiens with 4 samples.

Results

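The cytosolic ribosomal protein genes are the genes whose proteins, together with ribosomal RNA, form the ribosome of the cytoplasm. They were picked by symbol: names of the form RPL or RPS followed by a number and an optional A, X, Y or L, together with RPLP0, RPLP1, RPLP2 and RPSA, and without RPS27L. This gave 81 of the 23615 genes in the deposited table, 50 of the large subunit and 31 of the small subunit. They were measured by RNA-seq in K562 cells, an established human erythroleukaemia line, after 3 h with 5 µM clofarabine added in 0.005% DMSO (2 samples) or with DMSO, the solvent (2 samples). Clofarabine is a deoxyadenosine analogue that blocks ribonucleotide reductase and DNA synthesis. Both groups are the same line with no other labelled genotype or agent. The libraries are called C0 and C1 (clofarabine) and V0 and V1 (DMSO). The deposited table gives only the letters C and V. C was taken to stand for clofarabine and V for vehicle, and if it were the other way round, each higher value here would be a lower one. The symbols alone chose the genes, but the set was taken up with differences between these libraries already known, so those differences are given here as a description and not as a test of the set.

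The small subunit of the ribosome reads the messenger RNA and the large subunit joins amino acids and releases the growing chain through an exit tunnel. Most ribosomal protein messenger RNAs begin with a cytosine followed by an unbroken run of pyrimidines, the 5′ terminal oligopyrimidine (TOP) motif, through which their translation is coupled to nutrient and growth signals by mTOR and the binding protein LARP1. Apart from the acidic stalk proteins, they are used in equal numbers in each ribosome. Most of their messenger RNAs are short, stable and abundant, and the genes have many processed pseudogenes.

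The TOP motif is a feature of sequence that played no part in picking the genes. It was searched in RefSeq start sites (GRCh38.p14) as a C at the annotated start followed by at least 4 bases that are each C or T, on the strand of the gene only. Of 64 ribosomal protein genes with an entry in the promoter table, 46 (71.9%) had the motif, against 616 of 8576 other tested genes (7.18%) and 1404 of all 27305 genes of the table (5.14%). With the C allowed up to 5 bases to either side, the shares were 84.4%, 29.1% and 25.2%. Of the tested genes with an entry, the 5 with the highest and the 5 with the lowest log2 fold changes between the groups are shown, so that the start can be set beside the response. RPS2 had no entry. Each is 30 bases, 15 before the annotated start and 15 from it, and capitals mark the start base and, where the motif is present, its pyrimidine run.
RPS29 (chr14:49598696-49598725, minus strand): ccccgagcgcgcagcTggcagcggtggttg
RPL38 (chr17:74203663-74203692, plus strand): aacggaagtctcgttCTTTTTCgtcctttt
RPL36A (chrX:101390996-101391025, plus strand): tttgcctcgcggtttCTTTCTTTCCgcgcc
RPS21 (chr20:62387088-62387117, plus strand): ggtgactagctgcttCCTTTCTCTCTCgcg
RPL39 (chrX:119791616-119791645, minus strand): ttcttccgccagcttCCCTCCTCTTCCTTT
RPL21 (chr13:27251543-27251572, plus strand): cggccccgcctctttCCTTTCggccggaac
RPL18 (chr19:48619164-48619193, minus strand): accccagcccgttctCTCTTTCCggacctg
RPL13 (chr16:89560667-89560696, plus strand): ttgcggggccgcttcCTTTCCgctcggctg
RPL4 (chr15:66504841-66504870, minus strand): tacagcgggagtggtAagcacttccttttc
RPL29 (chr3:51995881-51995910, minus strand): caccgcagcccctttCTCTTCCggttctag

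The first 5 windows belong to genes with the highest log2 fold changes and the last 5 to genes with the lowest. RPL29 was chosen after its values were seen. A pyrimidine run from the start was present in 4 of the first 5 and in 4 of the last 5. The runs were 7 bases in RPL38, 10 in RPL36A, 12 in RPS21 and at least 15, the end of the window, in RPL39, beside 6 in RPL21, 8 in RPL18, 6 in RPL13 and 7 in RPL29. RPL13 has 3 starts in the table, of which 1 is shown. RPS29 and RPL4 had no match at the annotated start, which says only that these letters are not at that base of this table.

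The libraries held between 8370550 and 23888755 fragments, and C1 was the deepest. Of all genes, 11761 passed a filter on low counts and were tested by edgeR's quasi-likelihood test, where a gene was called if its p, adjusted after Benjamini and Hochberg, was under 0.05. Whether the samples are separate cultures is not in the labels, and p-values therefore cover only the spread among these 4 samples, which can be technical. All 6 erythroid markers looked for, among them GATA1, TAL1, HBG1, HBG2 and TFRC, were present, with GATA1 between 180 and 227 CPM (fragment counts scaled to the TMM-adjusted library total). GATA1 was called lower with clofarabine (log2 fold change -0.25, adjusted p = 0.0445) and the other 5 were not called. Of 6 markers of other cell types, 3, among them CD3E and ALB, had too few fragments to be tested and EPCAM was expressed (between 70.8 and 75.2 CPM). Their summed level was 78.8 and 73.8 CPM in C0 and C1 and 78.4 and 74.8 CPM in V0 and V1, so that it overlapped between the groups.

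Of the 81 ribosomal protein genes, 78 passed the filter, 48 of the large and 30 of the small subunit. Those that did not were 3 paralogs. RPL10L, a retrocopy of RPL10, had 0, 2, 2 and 1 fragments in C0, C1, V0 and V1, and RPL3L, the muscle form of RPL3, had 1 fragment in C1 and 0 in the others. How fragments were divided between near-identical copies is not stated in the labels, so the values of genes with close copies or pseudogenes carry that uncertainty.

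Per transcript length, in FPKM (fragments scaled to transcript length and library total), the 78 tested genes were among the most abundant messages of these cells. Their mean FPKM over the 4 libraries ranged from 25.0 to 8395 with a median of 2522, 65 of 78 were at 1000 or above, and 63 were among the 100 highest genes of the whole table. The median level was 2195 FPKM in the large and 2697 FPKM in the small subunit. The most abundant was RPS18, a protein of the small subunit head, at 8194, 10160, 7789 and 7435 FPKM in C0, C1, V0 and V1. RPL41, the smallest protein of the ribosome, followed at 6934, 8477, 6221 and 5944 FPKM, and RPS27, a zinc-binding protein of the small subunit, at 6917, 8468, 6031 and 5704 FPKM. RPL41 and RPS27 had almost the same level in every library, while RPS18 lay above both in each.

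Next in the order of levels were RPLP1 with a mean of 6072 FPKM and RPS2 with 5202. RPLP1 lay above RPS2 in all 4 libraries, but in V1 they were at 5556 and 5527 FPKM, a smaller gap than the spread of either gene over the libraries. At the low end stood RPL39L, a paralog of RPL39 known mainly from testis, at 29.1, 27.3, 23.6 and 20.1 FPKM. RPL21 had a mean of 234 FPKM, RPL27A 276, RPL13 278 and RPL36AL 338. RPL27A and RPL13 also had the longest implied transcripts of the set, 1.77 and 1.63 times the median tested gene. The length here is the ratio of the authors' scaled fragments to their FPKM, so that a gene model with a long isoform lowers the FPKM. In fragments, which do not divide by length, RPL13 was at 1187, 1283, 1189 and 1271 CPM, near the values of RPL27A at 1286, 1550, 1232 and 1231 CPM. RPL13 and RPL27A were thus low per length but not in fragments, whereas RPL21 and RPL39L were low on both scales.

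**Figure D1:**
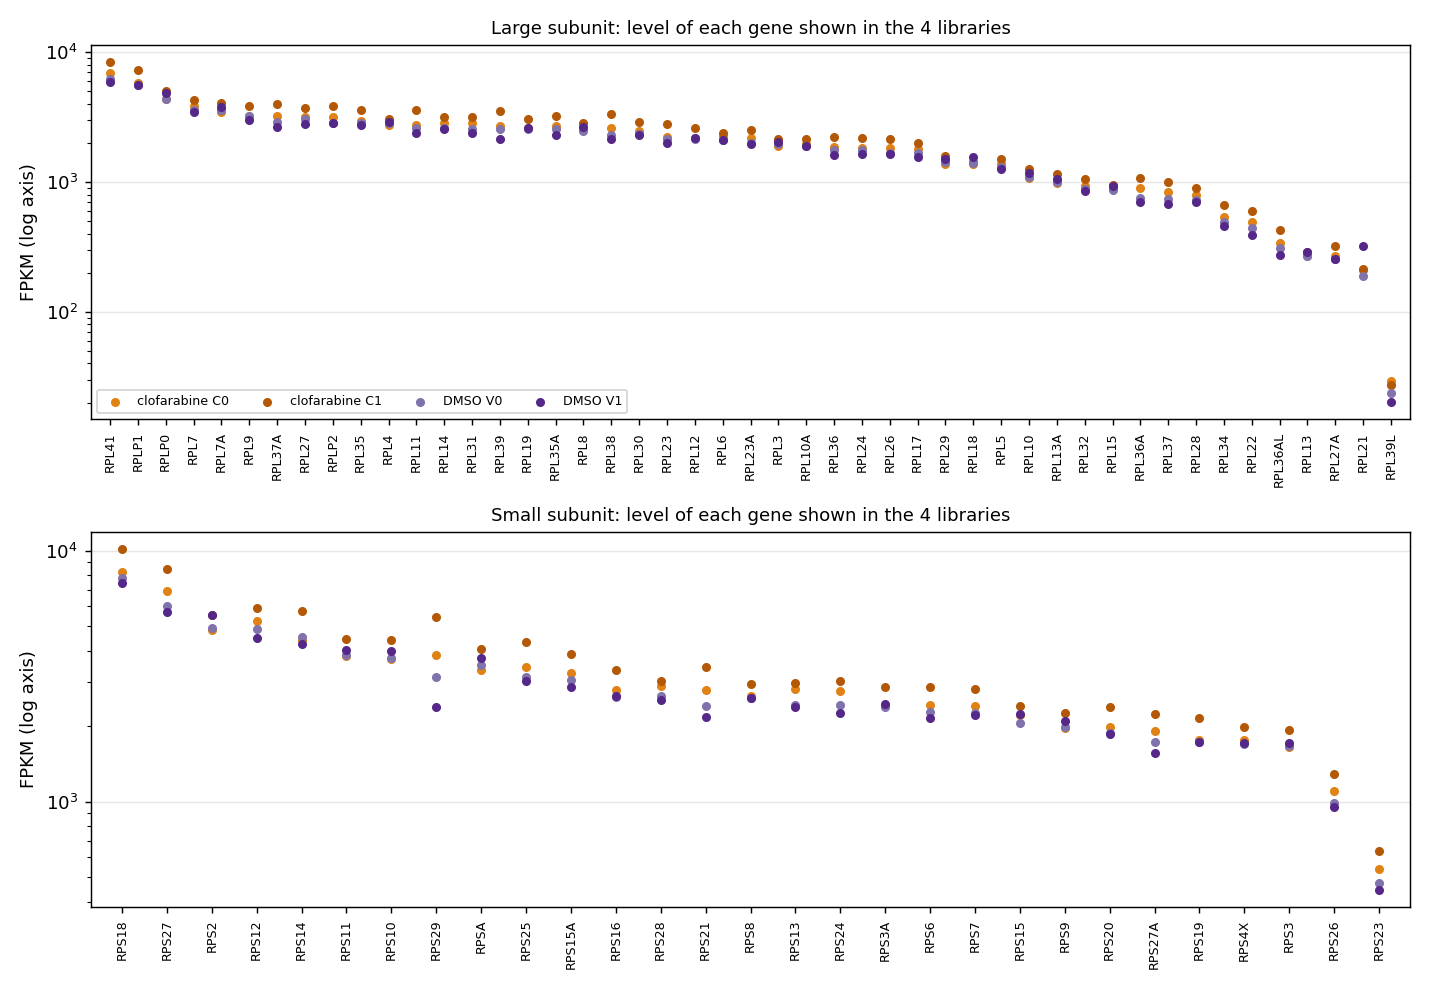
Level of 76 of the 78 tested ribosomal protein genes in FPKM (log axis) in the 4 libraries, large subunit above and small subunit below, ordered by the mean of 4 libraries. Most genes lie near or above 1000 FPKM, C1 gives the highest point for most genes, and RPL39L stands alone near 25 FPKM.

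Together the 81 genes took 10.4% and 11.7% of all fragments in C0 and C1 and 10.1% and 10.2% in V0 and V1 (95% Wilson intervals 10.425 to 10.458, 11.696 to 11.722, 10.101 to 10.142 and 10.139 to 10.174, which cover counting error only). The mean was 11.1% ± 0.897 (SD, n = 2) with clofarabine and 10.1% ± 0.0247 (SD, n = 2) with DMSO. Both clofarabine libraries lay above both DMSO libraries, C0 by little and C1 by much more, and the distance between C0 and C1 was larger than that between C0 and either DMSO library. With 2 libraries a group, no exact two-sided permutation test can give a p below 0.333. These shares are relative to all RNA sequenced. Fewer cells and less RNA per cell cannot be told apart in them.

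The subunits moved in step. The large subunit took 6.10%, 6.79%, 5.91% and 5.93% of fragments in C0, C1, V0 and V1, and the small subunit 4.34%, 4.92%, 4.21% and 4.22%. The ratio of large to small subunit fragments, in which the scaling of libraries cancels, was 1.405, 1.38, 1.405 and 1.406. C0, V0 and V1 had nearly the same ratio and C1 was lower, so that the mean difference of -0.013 rests on C1. The mean difference in the share of all fragments was 0.936 percentage points, 0.302 without C1 and 1.57 without C0. In units of FPKM the ratio was 1.107, 1.098, 1.114 and 1.115.

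Gene by gene, 73 of the 78 had a positive log2 fold change of clofarabine over DMSO and 5 a negative one, against 50.6% positive among all tested genes. In 53, both clofarabine libraries were above both DMSO libraries (22.0% of all tested genes), and in 0 both were below (21.3%). Called higher were 21 (1.54% of all tested genes) and called lower 0 (1.03%), while the other 57 did not pass. At an unadjusted p under 0.05, edgeR had 49 higher and 1 lower. DESeq2 called 19 higher and 0 lower, with 45 and 0 at an unadjusted p under 0.05. Of edgeR's 21, only 11 were among those 19. DESeq2 did not call RPL22, RPL37, RPL37A, RPL38, RPL39, RPL41, RPS21, RPS25, RPS27 or RPS29. The median log2 fold change was 0.22 in the large subunit (12 of 48 called, range -0.29 to 0.46) and 0.23 in the small subunit (9 of 30 called, range -0.05 to 0.76), beside 0.0020 for all tested genes. The differences were small, and the largest fold was 1.69, in RPS29.

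Over all tested genes, the count of calls moved with the setting, and was 56 when log2(FPKM + 1) was tested with limma. That of the ribosomal protein genes was 0 when log2(FPKM + 1) was tested with limma in place of counts (16 higher and 0 lower at an unadjusted p under 0.05). It also depended on single libraries. When a library was left out, this count and the count over all tested genes were both largest without C0 and smallest without V1. Without C1, the log2 fold changes of the 12 called genes of smallest p were lower by a factor of 1.40 to 1.96 (0.48 in RPS29), and the subunit medians were 0.092 and 0.096 in the large and small subunits, while without C0 both medians were 0.33.

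**Figure D2:**
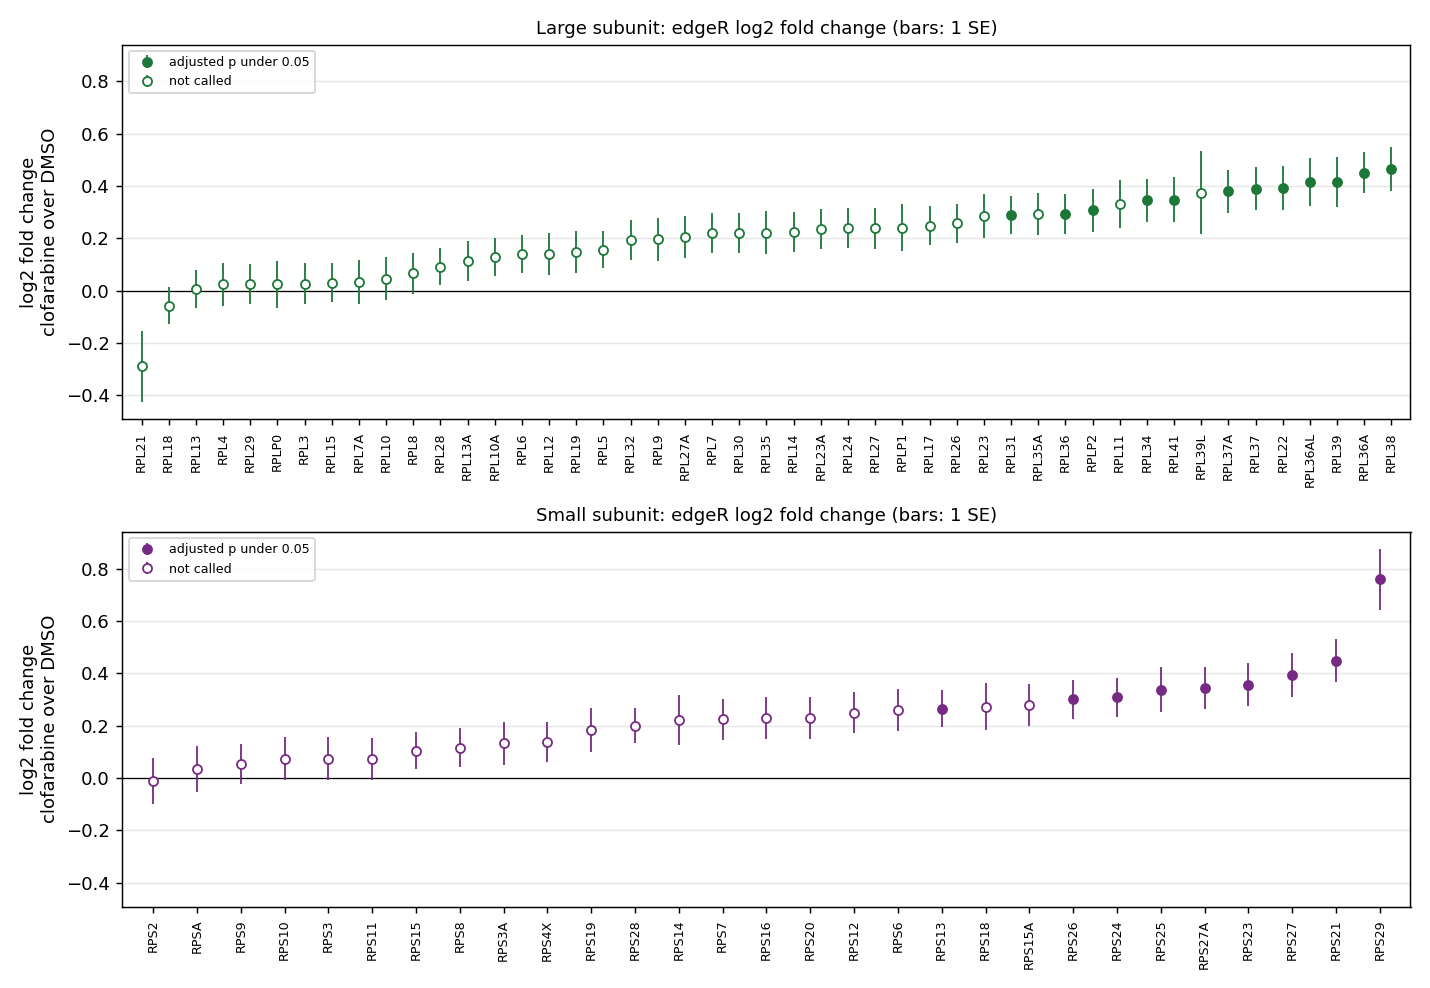
Log2 fold change of clofarabine over DMSO for 76 of the 78 tested ribosomal protein genes from edgeR, with bars of 1 SE, filled where the adjusted p is under 0.05. Both subunits run from values near 0 to about 0.46, and RPS29 stands apart at 0.76.

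The highest log2 fold change was that of RPS29. This gene, which encodes a small zinc-binding protein of the small subunit head, was at 392, 556, 319 and 244 CPM in C0, C1, V0 and V1. C1 was the highest and V1 the lowest, and the spread within each group was wide, but the groups did not overlap. Its log2 fold change was 0.76 (SE 0.12) and it was called higher by edgeR, though not by DESeq2 or on the FPKM scale.

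RPL38, known from mouse mutants for its part in the translation of Hox messages, was at 454, 571, 390 and 354 CPM, a log2 fold change of 0.46 (SE 0.085). RPL36A, a protein near the exit site for transfer RNA, was at 639, 755, 528 and 493 CPM (log2 fold change 0.45, SE 0.077). RPS21, of the small subunit, was at 558, 687, 479 and 435 CPM (log2 fold change 0.45, SE 0.083). In each of the 3, C1 was highest, V1 lowest, and both clofarabine libraries were above both DMSO libraries.

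RPL39, which lines the exit tunnel, was at 557, 722, 521 and 440 CPM (log2 fold change 0.42, SE 0.095). Here C0 was nearer to V0 than to C1, and the groups were separated by the small gap between C0 and V0. RPL36AL, the intronless copy of RPL36A, was at 113, 141, 101 and 90.4 CPM (log2 fold change 0.41, SE 0.091). RPS27 was at 1068, 1310, 930 and 883 CPM (0.39, SE 0.083), with the same order of libraries.

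The other called genes had log2 fold changes between 0.27 and 0.39. RPL22, an RNA-binding protein of the large subunit, was at 956, 1161, 856 and 758 CPM. RPL37 and RPL37A, zinc-binding proteins of the large subunit, were at 1170, 1421, 1032 and 946 CPM and at 718, 887, 645 and 591 CPM. All 3 were highest in C1 and lowest in V1.

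RPS23, which sits at the decoding site, was at 1728, 2039, 1515 and 1429 CPM. RPS27A, made as a fusion with ubiquitin, was at 1373, 1605, 1229 and 1120 CPM. RPL41 was at 1918, 2346, 1711 and 1640 CPM, with a log2 fold change of 0.35 that was 0.19 without C1 and a call lost without V0 or V1. In each, both clofarabine libraries exceeded both DMSO libraries. The remaining called genes, outside the 12 of smallest p and RPL41 and RPLP2, were chosen for naming after their values were seen: RPL31, RPL34, RPL36, RPS13, RPS24, RPS25 and RPS26.

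At the other end, several of the most abundant and longer messages showed no separation of the groups. RPLP0, the stalk base protein widely used as a reference gene, was at 4494, 5205, 4490 and 5044 CPM (log2 fold change 0.025, SE 0.089). RPS2, at the mRNA entry of the small subunit, was at 3657, 4222, 3733 and 4210 CPM (-0.012, SE 0.088). In both, C1 and V1 were high and C0 and V0 low, so that libraries of the same treatment differed more than the group means.

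RPL4, of the exit tunnel wall, was at 3518, 3935, 3599 and 3729 CPM (0.024, SE 0.081). RPL3, near the peptidyl transferase centre, was at 2180, 2456, 2236 and 2317 CPM (0.026, SE 0.078). For both, the 2 DMSO libraries lay between C0 and C1. RPL18, of the large subunit, had a log2 fold change of -0.057 (SE 0.072), with V1 the highest library.

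The lowest log2 fold change belonged to RPL21, at 78.6, 80.2, 70.5 and 122 CPM (-0.29, SE 0.14). V1 alone was high, and V0 was the lowest of the 4, so that the value turned to 0.16 without V1. The signs of RPL13, RPL4, RPLP0, RPL3 and RPSA (0.0060, 0.024, 0.025, 0.026 and 0.034) turned negative when libraries were scaled by total alone.

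**Figure D3:**
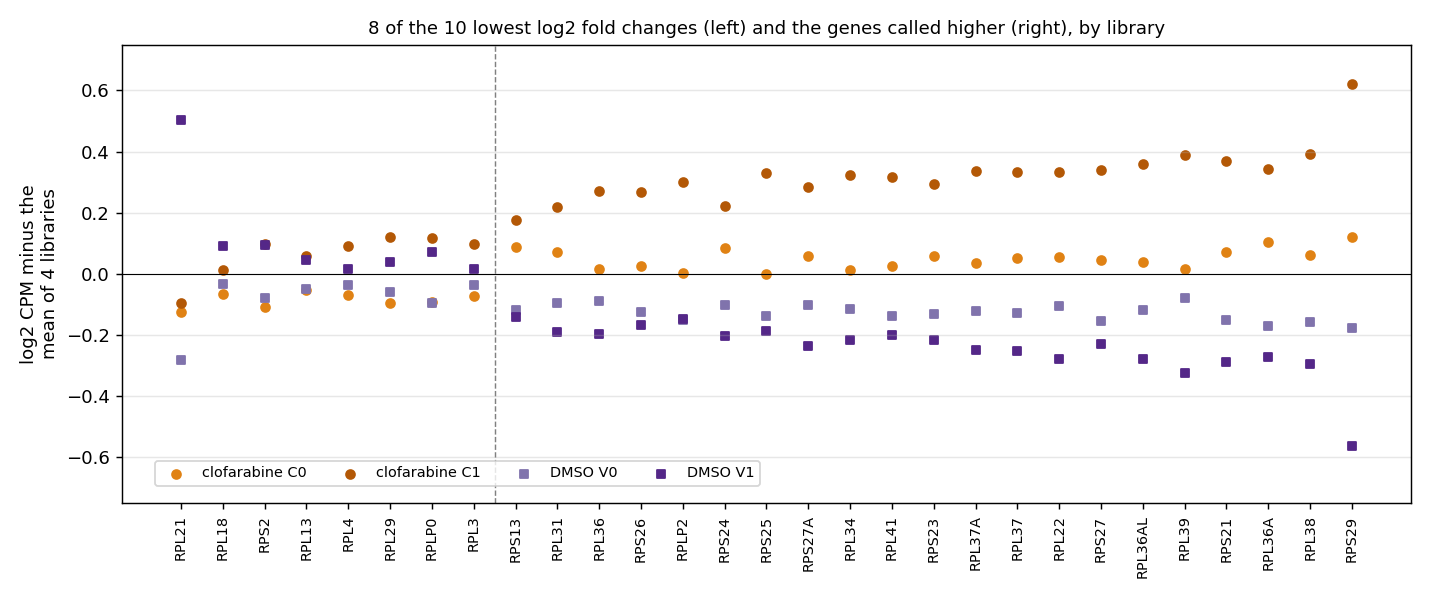
Log2 CPM of each library minus the mean of the 4 libraries, for 8 of the 10 genes of lowest log2 fold change (left of the dashed line) and the 21 genes called higher (right). On the right C1 is the highest point and V0 and V1 lie below C0 for every gene, while on the left V1 lies among or above the clofarabine libraries.

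The libraries of a group also differed among themselves over these genes. C1 was above C0 in 77 of 78 (51.4% of all tested genes), with a median log2 difference of 0.24, the exception being RPL39L. That distance within the clofarabine group was as large as the median log2 fold change between the groups. V0 was above V1 in 46 of 78 (50.0% of all tested genes), by a median of 0.020. Relative to the mean of the 4 libraries, the median ribosomal protein gene stood at -0.0076 and 0.22 in C0 and C1 and at -0.088 and -0.12 in V0 and V1, in log2 units. C0 was thus between C1 and the DMSO libraries and nearer to the latter.

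The genes varied less within the DMSO group: the median coefficient of variation of FPKM over the 2 libraries was 4.23% there and 11.4% in the clofarabine group. Within the ribosomal protein pool itself, RPS29 made up 0.379%, 0.459%, 0.320% and 0.243% of the fragments in C0, C1, V0 and V1 and RPL38 0.438%, 0.471%, 0.391% and 0.352%. RPLP0 made up 4.33%, 4.30%, 4.50% and 5.01%, and RPS2 3.53%, 3.49%, 3.74% and 4.18%. The pool thus held more of the first pair and less of the second pair in both clofarabine libraries, with V1 furthest from them.

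Transcript length was read as the ratio of scaled fragments to FPKM, with the median tested gene set to 1. The 78 genes had a median length of 0.19 and 65 of them fell in the shortest of 10 equal classes. In that class, the median log2 fold change was 0.23 for the 65 ribosomal protein genes (18 called higher) and 0.083 for the 1112 other genes (60 called higher, 5.40%; 6.63% for the whole class). C1 was above C0 by a median of 0.24 in the former and 0.13 in the latter. So other short transcripts were also higher in clofarabine, and in C1 over C0, by less. The class does not match them for length, since the median length in it was 0.17 for the ribosomal protein genes and 0.27 for the other genes. The 13 ribosomal protein genes outside that class had a median log2 fold change of 0.074, all 13 positive, and 3 were called: RPL22, RPL37 and RPS23, with lengths of 0.71, 0.52 and 1.18.

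**Figure D4:**
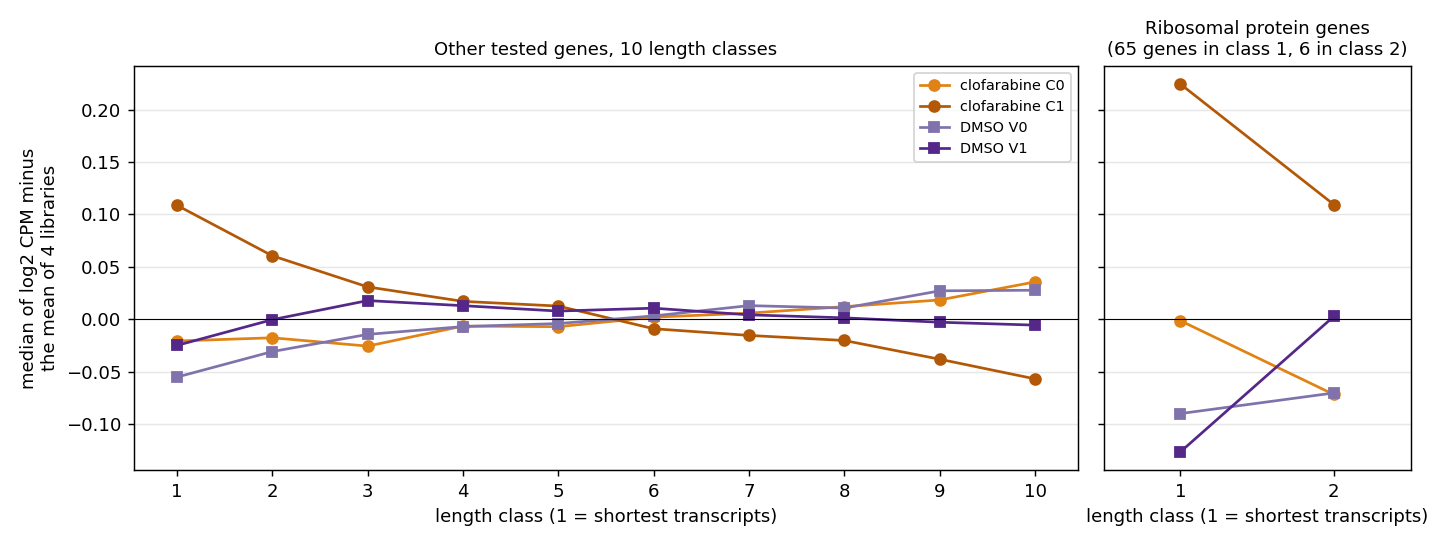
Median of log2 CPM minus the mean of 4 libraries in each library, by class of transcript length, for other tested genes (left) and for ribosomal protein genes in the 2 shortest classes (right). In class 1, C1 is highest in both panels, at 0.11 for other genes and 0.22 for ribosomal protein genes, while C0, V0 and V1 are at or below 0. Class 2 holds 6 ribosomal protein genes.

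Among themselves, the shorter ribosomal protein genes had the higher log2 fold changes. In the shortest 26 genes the median was 0.28, with 13 called and 23 separated between the groups. In the middle 26 it was 0.21, with 2 called and 18 separated, and in the longest 26 it was 0.12, with 6 called and 12 separated. The same order held between libraries of 1 treatment: C1 exceeded C0 by medians of 0.29, 0.22 and 0.21, and V0 minus V1 was 0.086, -0.0038 and -0.030. Across the 78 genes, the log2 fold change had r = -0.42 and rho = -0.48 with log2 length, C1 over C0 had -0.29 and -0.35, and V0 over V1 had -0.28 and -0.43. Genes are not independent replicates and share the same 4 libraries, so these are descriptions. Over 11659 other genes, the log2 fold change had r = -0.12 and rho = -0.13 with length, C1 over C0 had -0.19 and -0.30, and V0 over V1 had 0.038 and 0.10.

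With a smooth trend on length taken out of each library, the median log2 fold changes were 0.10 in the large and 0.098 in the small subunit. In that setting 17 ribosomal protein genes were called higher, of which 15 were among the 21. Of all 11761 tested genes, 481 were called there. By length, medians were then 0.12, 0.099 and 0.067 in the shortest, middle and longest 26 genes, and 7, 3 and 7 were called. How far a difference in RNA or library fragment size between the samples enters these values was not tested.

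**Figure D5:**
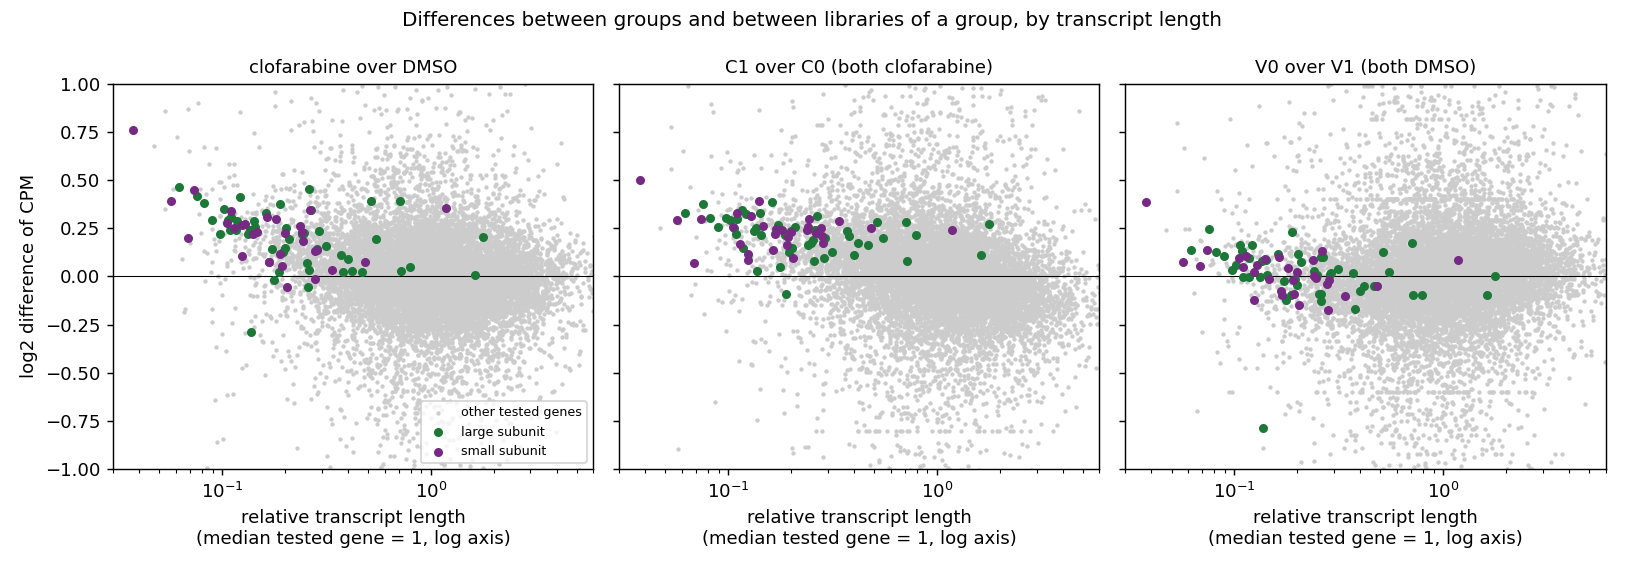
Log2 difference of CPM against relative transcript length (log axis, median tested gene at 1) for clofarabine over DMSO, C1 over C0 and V0 over V1, with other tested genes in grey and points outside the axes not drawn. Ribosomal protein genes lie at short lengths and mostly above 0 in the first 2 panels, RPS29 is the shortest and the highest of them in each panel, and RPL21 is the low point in the third.

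By place in the ribosome, the groups of proteins had similar medians with few exceptions. The stalk, which recruits the elongation factors, consists of RPLP0 with pairs of RPLP1 and RPLP2 on a base with RPL12. All 4 log2 fold changes were positive (median 0.19) and 1 was called, RPLP2, at 944, 1161, 850 and 852 CPM (0.31, SE 0.082). That value was 0.15 without C1 and 0.15 with the length trend taken out, and the call was lost in both, without V0, without V1 and on the FPKM scale. RPLP1 was at 1840, 2339, 1766 and 1770 CPM (0.24, SE 0.089), with the groups apart and C0 close to DMSO, and its value was 0.055 without C1 and 0.40 without C0. Per length, RPLP2 was at 72.5%, 76.9%, 65.2% and 58.1% of the level of RPLP0, and RPLP1 at 133%, 146%, 128% and 114%. The messages of the acidic proteins were thus higher relative to that of their anchor in both clofarabine libraries than in either DMSO library. The exact permutation test gave p = 0.333 in both ratios, the smallest it can give. Relative lengths were 0.12 in RPLP1 and 0.11 in RPLP2 against 0.38 in RPLP0, so the ratios set short messages against a longer one. With the length trend taken out, the log2 fold change was 0.085 in RPLP1 and -0.014 in RPLP0.

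RPL5 and RPL11 carry the 5S ribosomal RNA and bind MDM2 when ribosome assembly fails. RPL5 was at 1171, 1278, 1112 and 1084 CPM (0.16, SE 0.072) and RPL11 at 1210, 1580, 1155 and 1065 CPM (0.33, SE 0.093). Neither was called, and in RPL11 the level in C1 stood far above the other 3 libraries. Without C1 the values were 0.089 in RPL5 and 0.12 in RPL11, and without C0 they were 0.22 and 0.51. MDM2 itself was at 138, 139, 147 and 136 CPM and was not called (log2 fold change -0.026, adjusted p = 0.92). Of the list of 6 genes for this response, CDKN1A, the cell cycle inhibitor p21, was the single called member (0.62, adjusted p = 0.0017). K562 lacks working p53.

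In the exit tunnel, 8 of 8 genes were positive with a median of 0.24, 2 were called, and 7 had separate groups, RPL4 being the exception. RPL10, which joins the large subunit last and is needed for the subunits to join, was at 2342, 2722, 2372 and 2533 CPM (0.046, SE 0.082), with DMSO between C0 and C1. In the small subunit, the 2 proteins listed here for the mRNA entry, RPS2 and RPS3, had a median of 0.031 and 0 separated groups. The 5 of the mRNA exit and platform had a median of 0.20 with 1 called, and RPSA among them was at 3070, 3741, 3210 and 3444 CPM (0.034, SE 0.089), with C0 lowest and C1 highest. RPS14, deleted in the 5q- syndrome, was at 1683, 2204, 1720 and 1615 CPM (0.22, SE 0.094), and its groups overlapped. It was 0.010 without C1 and 0.40 without C0.

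The 8 tested proteins of the small subunit head had a median of 0.24, all positive, with 2 called. RPS19, the gene most often mutated in Diamond-Blackfan anaemia, was at 1170, 1436, 1144 and 1151 CPM (0.18, SE 0.083), where C0 was close to the DMSO libraries and C1 stood apart. Its value was 0.025 without C1 and 0.32 without C0. RPS10, of the head, and RPS9, which is not in the list for the head, had log2 fold changes of 0.073 and 0.053. RPS6, the protein phosphorylated by S6 kinase downstream of mTOR, was at 1564, 1850, 1468 and 1385 CPM (0.26, SE 0.081) with separate groups, and was not called. Without C1 it was 0.13. Over the 17 tested genes linked to Diamond-Blackfan anaemia, an inherited failure of red cell production, 16 were positive, 5 were called higher and the median was 0.24, close to that of the whole set.

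Many ribosomal protein genes carry small nucleolar RNAs in their introns. The 24 listed as such had a median log2 fold change of 0.13 with 4 called, and the other 54 a median of 0.23 with 17 called. The former were also longer, with a median relative length of 0.29 against 0.18. By start site, the 46 genes with a TOP motif had a median of 0.25 with 17 called, and the 17 tested genes with an entry but no match had 0.19 with 3 called, among them RPS29. Other measures went the other way. Both clofarabine libraries were above both DMSO libraries in 30 of the 46 (65.2%) and 13 of the 17 (76.5%), and 44 and 17 were positive. Over all tested genes, 1.54% were called higher, 22.0% were so separated and 50.6% were positive. The genes with the motif were shorter, with a median relative length of 0.17 against 0.20. No test was made between these subsets, since the set was taken up with its differences known.

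RPL36AL was at 37.7%, 39.8%, 41.0% and 39.3% of the FPKM of RPL36A in C0, C1, V0 and V1, and the groups overlapped in this ratio, while both copies were called higher. RPL39L was at 1.07%, 0.776%, 0.927% and 0.937% of RPL39. The paralogs RPS27L, RPL22L1, RPL26L1 and RPL7L1 were not called by edgeR or DESeq2 (0 of 4, median log2 fold change 0.21, with 3 and 0 at an unadjusted p under 0.05). RPL22L1 was at 3.80%, 3.48%, 3.95% and 3.84% of RPL22, with C0 close to V1. RPS27L was at 1.36%, 1.24%, 1.51% and 1.47% of RPS27, and RPL7L1 at 3.99%, 3.85%, 4.51% and 4.65% of RPL7. Each of these ratios was lower in both clofarabine libraries than in either DMSO library. The exact permutation test gave p = 0.333 for each, the smallest it can give. The ratio of RPL26L1 to RPL26 overlapped between the groups. RPS27L and RPL7L1 are longer than RPS27 and RPL7 (0.33 against 0.057 and 0.41 against 0.24). Some reads of RPL36A and RPS10 were assigned to joined symbols: RPL36A-HNRNPH2 had 1221, 2050, 661 and 760 estimated fragments, and RPS10-NUDT3 382, 849, 265 and 0.0059, the last of which is near 0 in V1 alone.

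Ribosomal proteins under other symbols include FAU and GNB2L1. FAU, the precursor of RPS30, was at 567, 717, 538 and 534 CPM (log2 fold change 0.26, adjusted p = 0.11). GNB2L1, also known as RACK1, had a log2 fold change of -0.057. Neither was called.

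Other genes of the translation system, from lists drawn up by function, are given for comparison, without a test against the ribosomal protein genes. Over all tested genes, edgeR called 1.54% higher and 1.03% lower, shares at which a short list can easily hold 0 calls. Of 18 translation factors and other genes known for TOP messages, edgeR called 0 and the median log2 fold change was 0.062. At an unadjusted p under 0.05, 4 were higher and 2 lower, and DESeq2 called 1 higher. EEF1A1, the elongation factor that brings transfer RNA, named after its values were seen, was at 20080, 22250, 20480 and 20800 CPM. It shares the TOP start with the ribosomal protein genes, but its transcript is longer than the median gene, at 1.25. Of 21 assembly factors, edgeR and DESeq2 called 0 (median 0.030), and 6 were higher and 1 lower in edgeR at an unadjusted p under 0.05. Of 12 regulators of TOP messages and ribosomal protein genes, MYC was the single called member, lower with a log2 fold change of -0.63 (adjusted p = 1.9e-06), at 195 and 186 CPM in C0 and C1 against 292 and 298 CPM in V0 and V1.

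Host genes of small nucleolar RNAs, whose spliced RNAs are short and often begin with a TOP motif, also had members called higher. Of 11, 4 were called higher (36.4%), with a median of 0.20 and a median length of 0.20. The share called higher was 1.54% of all tested genes and 5.40% of other genes in the class of shortest transcripts. SNHG8 was at 73.7, 87.9, 55.3 and 46.8 CPM (0.67, adjusted p = 0.000198) and GAS5 at 217, 263, 183 and 178 CPM (0.42, adjusted p = 0.0033). ZFAS1 (0.43, adjusted p = 0.0039) and SNHG5 (0.29, adjusted p = 0.042) were also called. Without C1, GAS5 was at 0.26 and SNHG5 at 0.17. The call of SNHG5 was then lost, as it was without V1, with DESeq2, with the length trend taken out and on the FPKM scale. The call of ZFAS1 was lost without V1 (0.30), and those of GAS5 and ZFAS1 on both FPKM scales, while that of SNHG8 was lost only on log2(FPKM + 1) among the alternatives run. C1 was the highest library of each of these 4, as in the 21 called ribosomal protein genes.

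Mitochondrial ribosomal proteins, whose messages are short but have no part in the cytosolic ribosome, had a median log2 fold change of 0.11 with 62 of 76 positive. Called higher were 4 (MRPL33, MRPL47, MRPS21 and MRPS33), or 5.26%. The share called higher was 5.40% of other genes, mitochondrial ones included, in the class of shortest transcripts (median length 0.27), and 1.54% of all tested genes. In the next class (median length 0.47), 20 of 1170 other genes were called higher. The mitochondrial set was not matched to either class. MRPL33 had 0.46 (adjusted p = 0.037) and MRPL47 0.36 (adjusted p = 0.0074). All 4 calls were lost on the FPKM scale. That of MRPS33 was also lost with DESeq2, with library size only and with libraries thinned to the smallest total. MRPL33 was at 0.27 without C1 or without V1, and its call was lost in both, with DESeq2 and with the length trend taken out. The call of MRPL47 was lost without V1. The calls of MRPS21 and MRPS33 were lost without C1, without V0 and with the length trend taken out, and that of MRPS33 also without V1 (0.29). The median length of the mitochondrial set was 0.37, and C1 was above C0 in 69 of 76. Its median log2 fold change was smaller than that of the cytosolic set, and no test was made between the sets.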

How the data were processed

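RNA from 4 samples of K562 cells was measured, 2 with clofarabine and 2 with DMSO. TRIzol LS RNA went into directional NEBNext libraries, per the labels' protocols. The submitters' processing notes name cutadapt 1.5, TopHat2 2.0.13, Cuffdiff 2.2.1 and the build hg19. The annotation and strand setting used for counting were not given in the sources used here, and antisense or overlapping genes may share fragments. The authors deposited estimated counts of fragments for each gene and library, not all of them whole numbers. Per the file headers, there are also scaled fragments, a signal that multiplies these counts by a library factor, and FPKM, in which the authors divided by transcript length. The table marks 6 genes as failed, none of them a ribosomal protein gene.

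The members and the gene lists were chosen with earlier results of these data known. Estimated counts were rounded and compared with edgeR 4.0.16 (R 4.3.3): TMM scaling, filterByExpr with a minimum count of 10, the quasi-likelihood test with group as the only term, and Benjamini-Hochberg adjustment over all 11761 tested genes. The script was tested on simulated data. The common biological coefficient of variation was 6.01%, and depth was between 8370550 and 23888755 fragments. CPM is scaled by the TMM-adjusted library size. Relative length is scaled fragments over FPKM, divided by the median of tested genes. Named are up to 12 called genes of smallest p, the 5 highest and lowest log2 fold changes of each subunit, the 5 highest and lowest FPKM, untested genes, genes chosen by function with their paralogs, called genes of the lists (up to 6 each), MDM2 and MYC. Some genes that the rule would name are not reported here. Alternatives were DESeq2's size factors, library size only, no filter, DESeq2 1.42.0, limma 3.58.1 on log2 FPKM with a pseudocount of 1 or 0.1, a length offset (loess, span 0.3), thinning to 8370550 fragments, leaving out each library and a replicate block. Start sites came from RefSeq (GRCh38.p14) by symbol. No hg19 coordinates are given.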

Additional observations from a re-analysis of the deposited data

How the results depend on the processing

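Called higher were 21 ribosomal protein genes. There were 42 with no filter on low counts, 0 with limma on log2(FPKM + 1) and 0 on log2(FPKM + 0.1), and between 3 (without V1) and 59 (without C0) when a library was left out. DESeq2's size factors gave 21, library size only 30, DESeq2 19, the length offset 17 and thinning 22. Over all genes, these settings called 307, 370, 166, 481 and 286. Of the 21, 11 were also called by DESeq2 and 15 with the length offset. Called lower were 0, but 1, RPL21, with no filter, 1 with the length offset and between 0 and 1 without a library. With the replicate block, 44 were called higher and 1 lower, and 796 were called over all genes. The deviations of C0 and V0 from their group means had a correlation of 0.047 over 11737 tested genes, but of -0.45 over the 78 ribosomal protein genes, where C0 deviated with V1 and C1 with V0. No label ties the numbers to a culture or day, and no pairing is assumed. The median log2 fold changes of 0.22 (large) and 0.23 (small) were 0.10 and 0.098 with the length offset, and between 0.092 and 0.33 and between 0.096 and 0.33 without a library. The difference in the share of fragments, 0.936 percentage points, was 2.196 for the sum of FPKM, and between 0.302 (without C1) and 1.57 (without C0) when a library was left out. The cause of these shifts was not tested, except that leaving out a library leaves 1 sample in a group, taken to vary as the other group does.

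Among the genes followed under the alternatives, signs changed in the 11 given here. Some genes named above, such as MDM2, EEF1A1 and RPL29, were not among those followed. With library size only, RPL13 was at -0.030, RPL4 -0.012, RPSA -0.0038, RPLP0 -0.012 and RPL3 -0.010. With the length offset, RPL4 was at -0.0012, RPS10 -0.046, RPS9 -0.052, RPSA -0.016, RPLP0 -0.014 and RPL3 -0.0053. Without a library, the values ranged from -0.054 to 0.061 in RPL13, from -0.062 to 0.10 in RPL4, from -0.12 to 0.17 in RPSA, from -0.088 to 0.13 in RPLP0, from -0.065 to 0.11 in RPL3, from -0.070 to 0.15 in RPL10, from -0.060 to 0.19 in RPS10 and from -0.057 to 0.15 in RPS9. They ranged from -0.12 to 0.0013 in RPL18, from -0.61 to 0.16 in RPL21 and from -0.12 to 0.089 in RPS2. Of 546 values of single genes under the alternatives, 403 kept direction and side of the threshold, 91 lost the call, 26 gained it and 26 changed sign. The shallowest library, V0, has 8370550 fragments, at which RPL39L and the untested paralogs are the members with few fragments.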
